A study of Mus musculus with 8 samples.

Results

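Microglia transcripts were followed through a precipitation of astrocyte ribosomes from mouse cortex. The set holds 34 genes, chosen by symbol as transcripts of microglia, out of 24060 gene rows, and all 34 had a row and passed the filter on low values. The tissue came from 4 young adult mice of both sexes, at about postnatal day 80, and every animal was hemizygous for Aldh1l1-creERT2 and heterozygous for Ribotag. The first allele makes a Cre recombinase fused to a ligand-dependent estrogen receptor domain in cells that use the Aldh1l1 promoter, which in cortex are astrocytes. The second puts a hemagglutinin (HA) tag on the ribosomal protein RPL22 after Cre has acted, so that ribosomes of recombined cells can be pulled down with their RNA. Each animal, numbered 579, 580, 581 or 595, gave 1 library from the cleared lysate, called input, and 1 from the ribosomes precipitated by the tag, called HA IP. Both groups thus carry the same alleles, the comparison is between fractions of 1 lysate, and animals without Cre are not analysed here.

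Microglia are the resident macrophages of brain tissue. They derive from the yolk sac and not from the neural lineage that gives astrocytes, depend on signalling through the receptor CSF1R, and survey the tissue with purine and chemokine receptors. They make the recognition molecule C1q and clear debris and synaptic material by phagocytosis. In a ribosome precipitation aimed at another cell type, their transcripts are commonly used to gauge how much RNA of untagged cells remains. When tamoxifen was given, and which share of cells recombined, is not given in the sources used here.

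The libraries held 33834388 to 53625125 fragments, the HA IP library of animal 595 being the smallest and its input the largest. Values are FPKM, that is fragments scaled by gene length and library total, and fold changes are on log2(FPKM + 0.1) after trimmed mean (TMM) scaling, with standard errors (SE) from limma. The scaling raised the ratios of HA IP to input by 0.83 on the log2 scale on average (1.78-fold). For low genes the pseudocount of 0.1 made the shift smaller, as for Ptprc, at -1.25 without the scaling and -0.86 with it. Percentages of input below are on the deposited scale, without the scaling. There the median gene tested stood at 57.6% of input. The labels were checked on Aldh1l1, which rose from 21.8 ± 0.926 to 406 ± 26.2 FPKM (SD, n = 4 each, as for every ± below). The tagged gene Rpl22 was at 10.3 ± 0.989 and 9.37 ± 1.54 FPKM; its log2 fold change was 0.68 with the scaling and -0.14 without it. All 10 astrocyte markers of a short list rose (median log2 fold change 4.41).

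Of the 34 microglia transcripts, 33 were lower in HA IP and 1, Sall1, was higher (limma, Benjamini-Hochberg adjusted p under 0.05 over 15605 genes; largest adjusted p of a member 0.0023). Members with few fragments in HA IP passed the filter on low values through their inputs, such as Slc2a5, with 2 to 10 fragments per HA IP library. Among all genes tested, 41.4% were lower and 41.8% higher at the same threshold. On the deposited scale the members' counts were again 33 and 1, where 61.6% of all genes were lower and 23.3% higher. The members' median log2 fold change was -2.83, beside a median of 0.00 over all genes tested, which follows from the scaling. On the deposited scale these medians were -3.60 and -0.75. For all 33 the 4 HA IP values lay below the 4 input values with no overlap, which was so for 59.0% of all genes; for Sall1 they lay above, as for 22.0% of all genes. Without Sall1, the members took 0.0591 ± 0.00239% of all fragments in input and 0.00413 ± 0.000220% in HA IP. Within animals the share in HA IP was 6.56%, 7.12%, 6.57% and 7.79% of that in input, in the order 579, 580, 581 and 595. The libraries of an animal come from the same lysate and so from the same microglia. Between animals, fewer microglia and less RNA per microglia cannot be told apart in bulk RNA.

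**Figure D1:**
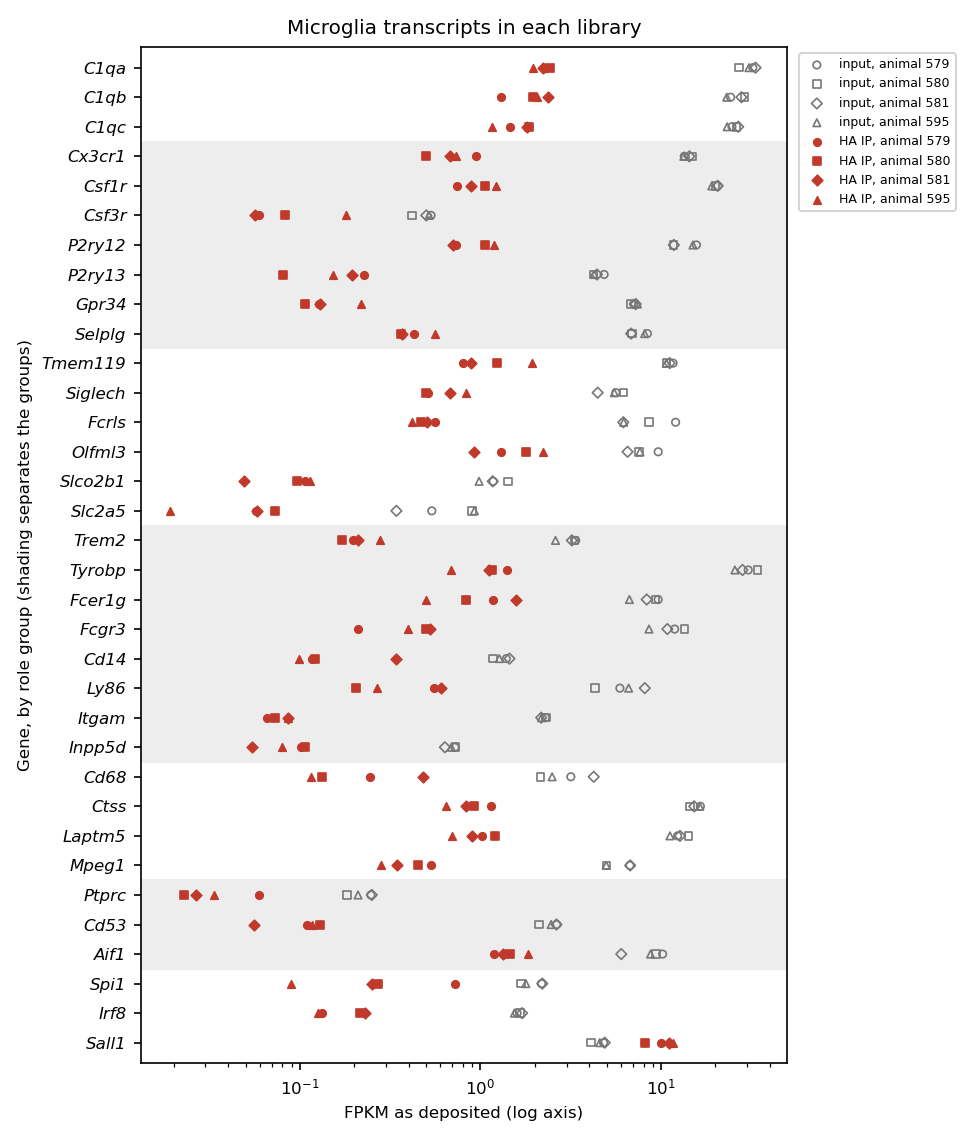
FPKM of each microglia transcript (rows, grouped by role) in each of the 8 libraries on a log axis, open grey symbols for input and filled red symbols for HA IP, with 1 symbol shape per animal. In 33 rows all red symbols lie to the left of the grey ones; in the last row, Sall1, they lie to the right, at 8.18 to 11.6 FPKM against 4.10 to 4.88.

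Myeloid genes are commonly read from promoters with purine-rich sites for PU.1, the factor encoded by the member Spi1, and so the promoters of the members were searched. RefSeq windows of 250 bases before an annotated gene start (GRCm38.p6) were found for 26 of the 34 members, 33 windows in all. The core GAGGAA, read on both strands, was present in 17 of the 33 windows (51.5%), belonging to 16 genes, against 23.3% of 32851 windows of all genes. The windows of Fcgr3 overlap, and the same copy is counted in both, 15 and 6 bases before their starts. A longer motif that was also searched, the ETS-IRF composite element, was in 0 of the 33 and in 2.30% of all windows. These are letter matches, not bound sites, and say nothing of what the factors do here. Windows of 5 members are shown, 3 with the core in capitals (on the reverse strand it reads TTCCTC) and 2 without it. Itgam, a receptor chain for complement-coated particles, has 2 copies, 84 and 15 bases before the start (distance of the copy's first base). C1qb and Trem2 have 1 copy each, 30 and 40 bases before it. Cx3cr1 has none, and neither does any of the 3 windows of Sall1, of which 1 is shown. The core was also missing from every window of 8 other members, all of which fell: Fcer1g, Irf8, Ly86, Mpeg1, Olfml3, P2ry12, Siglech and Slc2a5.
Itgam, chr7:128062390-128062639, + strand: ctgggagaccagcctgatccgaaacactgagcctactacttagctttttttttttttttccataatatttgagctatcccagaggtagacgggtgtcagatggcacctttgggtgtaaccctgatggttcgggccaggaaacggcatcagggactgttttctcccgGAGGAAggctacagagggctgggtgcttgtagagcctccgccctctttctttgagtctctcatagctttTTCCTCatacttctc
C1qb, chr4:136886201-136886450, - strand: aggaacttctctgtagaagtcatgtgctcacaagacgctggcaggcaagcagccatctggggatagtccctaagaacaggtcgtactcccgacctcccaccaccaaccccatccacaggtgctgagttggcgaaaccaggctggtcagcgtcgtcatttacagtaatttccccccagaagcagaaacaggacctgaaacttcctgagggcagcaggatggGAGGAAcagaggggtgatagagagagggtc
Trem2, chr17:48346151-48346400, + strand: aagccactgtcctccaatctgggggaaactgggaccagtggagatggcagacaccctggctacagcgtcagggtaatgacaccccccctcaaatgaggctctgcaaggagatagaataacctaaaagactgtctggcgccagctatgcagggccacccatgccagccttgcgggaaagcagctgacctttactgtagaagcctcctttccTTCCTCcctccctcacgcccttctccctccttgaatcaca
Cx3cr1, chr9:120068297-120068546, - strand: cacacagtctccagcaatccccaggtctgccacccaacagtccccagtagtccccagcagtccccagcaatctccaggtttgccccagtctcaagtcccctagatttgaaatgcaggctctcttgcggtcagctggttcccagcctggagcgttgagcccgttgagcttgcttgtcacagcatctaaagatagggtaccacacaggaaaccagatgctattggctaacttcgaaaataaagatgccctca
Sall1, chr8:89042863-89043112, - strand: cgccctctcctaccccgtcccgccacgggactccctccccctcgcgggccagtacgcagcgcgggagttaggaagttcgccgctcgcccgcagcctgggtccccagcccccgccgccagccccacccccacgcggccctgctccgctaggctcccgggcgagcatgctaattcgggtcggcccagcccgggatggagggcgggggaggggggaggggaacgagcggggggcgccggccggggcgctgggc

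The 3 chains of C1q, the molecule that starts the classical complement pathway and is made in brain mainly by microglia, fell together. C1qa stood at 32.2, 27.0, 33.4 and 30.7 FPKM in the inputs of animals 579, 580, 581 and 595 and at 2.29, 2.42, 2.21 and 1.94 FPKM in the HA IP libraries. C1qb was at 26.1 ± 2.81 FPKM in input and 1.93 ± 0.451 FPKM in HA IP, and C1qc at 25.2 ± 1.56 and 1.57 ± 0.330 FPKM. For each chain the 4 inputs lay close together and the 4 HA IP values far below them, with no overlap. The log2 fold changes were -2.93 (SE 0.10), -2.91 (SE 0.16) and -3.14 (SE 0.15). As a percentage of the same animal's input, C1qa kept 7.26 ± 1.19%, C1qb 7.39 ± 1.65% and C1qc 6.18 ± 0.965%, ranges that overlap.

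A group of 7 surface genes, made up of receptors for chemokines, growth factors, purines and a lysophospholipid and of the selectin ligand gene Selplg, fell in full. Of all genes tested, 41.4% were lower. Csf1r, the receptor that microglia need for survival, was at 20.6, 20.1, 20.6 and 19.1 FPKM in input and at 0.739, 1.05, 0.884 and 1.22 FPKM in HA IP, in the same order of animals. Its inputs were nearly level, and the HA IP library of animal 595 was the highest of the 4. The log2 fold change was -3.46 (SE 0.14). Cx3cr1, the receptor of the neuronal chemokine fractalkine, went from 14.0 ± 0.751 to 0.713 ± 0.184 FPKM, with a log2 fold change of -3.37 (SE 0.16). The ADP receptor gene P2ry12, which directs process movement towards injury, kept 6.89 ± 1.94% of its input level, and its neighbour P2ry13 kept 3.63 ± 1.24%. Selplg, which encodes PSGL-1, kept 5.66 ± 0.812%.

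Gpr34, a receptor for lysophosphatidylserine, kept the least of all members. It stood at 7.06, 6.83, 7.24 and 7.40 FPKM in input and at 0.127, 0.107, 0.129 and 0.218 FPKM in HA IP, or 2.03 ± 0.625% of input (log2 fold change -4.24, SE 0.15). These HA IP values rest on 9 to 14 fragments per library. Csf3r, the receptor of granulocyte colony-stimulating factor, kept 19.2 ± 11.0% and varied most of the 7 in HA IP. Its HA IP values were 0.0596, 0.0832, 0.0567 and 0.179 FPKM against inputs of 0.417 to 0.533 FPKM, animal 595 again being the highest. Its log2 fold change of -1.10 (SE 0.21) is made smaller by the pseudocount, because the level is low.

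Some receptor genes lie inside or beside other genes, and neither the annotation nor the strand setting of the counting is given in the sources used here. P2ry12 and P2ry13 lie within Med12l, a Mediator subunit gene, which was at 4.04 FPKM in input and 0.435 FPKM in HA IP. Gpr34 lies within the span of Cask, a synaptic scaffold gene, which was at 3.26 and 2.91 FPKM. Whether any fragments were shared was not tested.

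Genes that mark homeostatic microglia at the surface, outside the cell or as transporters fell in all 6 cases, to 6.26% to 20.2% of input. Over all genes tested, 41.4% were lower and the median stood at 57.6% of input. Tmem119, a membrane protein gene used to tell microglia from blood-borne macrophages, was at 11.7, 10.7, 11.2 and 10.7 FPKM in input and at 0.802, 1.24, 0.890 and 1.94 FPKM in HA IP. The highest input was 1.09 times the lowest, and the highest HA IP value, that of animal 595, was 2.42 times the lowest. Its log2 fold change was -2.36 (SE 0.23). Olfml3, a secreted matrix protein gene, kept the most of the 33 members that fell, 20.2 ± 7.65%. Its HA IP values were 1.30, 1.80, 0.925 and 2.23 FPKM and its inputs 9.64, 7.56, 6.53 and 7.64 FPKM (log2 fold change -1.51, SE 0.24). Siglech, a sialic acid-binding lectin gene, kept 11.9 ± 3.79% and Fcrls, an Fc receptor-like scavenger gene, 6.26 ± 1.53%. In input Fcrls was highest in animal 579, at 1.95 times the lowest library. The fructose transporter gene Slc2a5 fell by 1.79 on the log2 scale (SE 0.27), on 2 to 10 fragments per HA IP library, and the organic anion transporter gene Slco2b1 fell by 2.17 (SE 0.18).

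Phagocytic and innate immune receptors fell together with their signalling partners, 8 of 8, where 41.4% of all genes tested were lower. TREM2, a lipid receptor, signals through the adaptor TYROBP (DAP12), yet the genes differed in what was left of them. Trem2 went from 3.37, 3.31, 3.21 and 2.60 FPKM to 0.197, 0.172, 0.210 and 0.279 FPKM, and Tyrobp from 30.4, 34.1, 28.3 and 25.7 FPKM to 1.41, 1.17, 1.11 and 0.685 FPKM. Trem2 kept 5.20% to 10.7% of input and Tyrobp 2.67% to 4.62%, so that the animals' values did not overlap. They rest on only 17 to 21 fragments of Trem2 and 13 to 36 of Tyrobp per HA IP library, and the difference was not tested. In the HA IP library of animal 595 Trem2 was the highest of the 4 and Tyrobp the lowest. Fcer1g, the other small adaptor, which carries Fc receptor signals, kept 11.8 ± 5.06%, and the Fc receptor gene Fcgr3 3.74 ± 1.40%. Fragments of Fcgr3 can be shared with its close relatives among Fc receptors. Itgam, the chain of complement receptor 3, was the most even of the group in input, at 2.17 to 2.31 FPKM in input and 0.0659 to 0.0862 FPKM in HA IP (log2 fold change -3.13, SE 0.12).

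Cd14 and Ly86, genes of receptor partners in the sensing of bacterial products, kept 12.5 ± 7.49% and 6.40 ± 2.44% of input. The HA IP library of animal 581 was the highest for both, with 0.342 FPKM of Cd14 against 0.0988 to 0.121 FPKM in the other 3. Inpp5d, the phosphatase SHIP1 that restrains these receptors, kept 12.2 ± 2.77%. The log2 fold changes of these 3 genes were -1.84 (SE 0.26), -2.96 (SE 0.31) and -1.55 (SE 0.15).

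The 4 lysosomal and endosomal members lay close together at 5.67% to 7.49% of input. Ctss, the cathepsin of antigen processing, went from 15.6 ± 0.982 to 0.885 ± 0.206 FPKM. Laptm5, a lysosomal membrane protein gene, kept 7.49 ± 1.08% and Mpeg1, which encodes the pore-forming perforin-2, 6.93 ± 1.89%. Cd68, the macrophage sialomucin gene, kept 7.45 ± 2.85% and varied most across animals, from 2.15 to 4.24 FPKM in input and from 0.115 to 0.478 FPKM in HA IP, with animal 581 the highest in both. Its log2 fold change was -2.57 (SE 0.34), against -3.23 (SE 0.16) for Ctss.

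Among genes shared with other leukocytes, Cd53, a tetraspanin gene, kept 4.28 ± 1.66%, and Ptprc, which encodes CD45, 15.7 ± 5.90%. Ptprc was at 0.223 ± 0.0322 FPKM in input, near the pseudocount of 0.1, which makes its log2 fold change of -0.86 (SE 0.15) smaller. Aif1, which encodes the actin-bundling protein IBA1 and is the usual stain for microglia, kept 17.6 ± 4.92%. It was at 10.2, 9.38, 6.02 and 8.75 FPKM in input and at 1.19, 1.46, 1.34 and 1.84 FPKM in HA IP, a log2 fold change of -1.67 (SE 0.18). The HA IP values of Aif1 rest on 47 to 56 fragments per library.

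The 3 transcription factor genes did not move alike. Irf8, a factor of myeloid development, fell from 1.62 ± 0.0687 to 0.176 ± 0.0544 FPKM and kept 10.7 ± 2.92% of input. Spi1 fell as well, from 2.18, 1.68, 2.20 and 1.78 FPKM to 0.725, 0.272, 0.251 and 0.0890 FPKM (log2 fold change -1.74, SE 0.40; adjusted p = 0.0023 by limma). The HA IP library of animal 579 was 8.15-fold above that of animal 595. The values stand for 44 and 4 fragments, with exact 95% Poisson intervals of 32.0 to 59.1 and 1.09 to 10.2, which cover counting error only. Spi1 had the largest SE of all members.

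Sall1, a zinc finger factor that maintains microglial identity, went the other way. It stood at 4.81, 4.10, 4.88 and 4.58 FPKM in input and at 9.96, 8.18, 11.0 and 11.6 FPKM in HA IP. Every HA IP value was above every input value, and the gene rose in 4 of 4 animals, to 207%, 199%, 226% and 253% of input. The log2 fold change was 1.94 (SE 0.11; adjusted p = 7e-08 by limma), and 1.12 on the deposited scale. It rests on 1905 to 2599 fragments in each HA IP library, more than all 33 other members gave together, which was 1486 to 1862. The summed level of the members in HA IP was 29.8 to 32.9 FPKM with Sall1 and 20.6 to 21.6 FPKM without it.

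**Figure D2:**
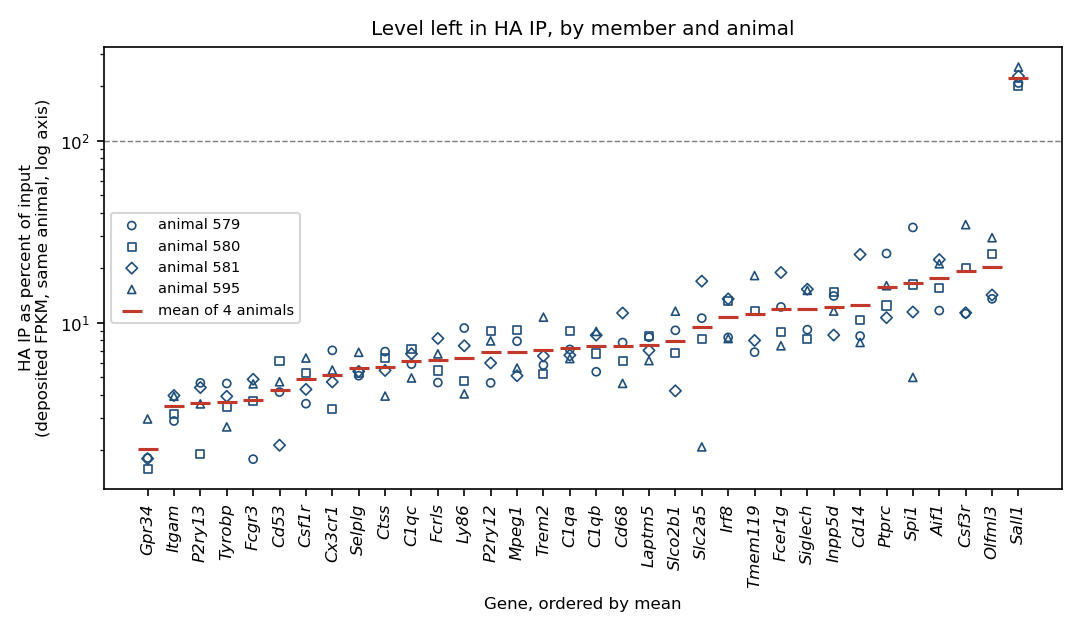
Level of each microglia transcript in HA IP as a percentage of the same animal's input (deposited FPKM, log axis), 1 open symbol per animal and a red bar for the mean of 4; the dashed line is 100%. Genes are ordered by mean, from Gpr34 at 2.03% to Olfml3 at 20.2%, with Sall1 apart at 221%.

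Across members the remainder in HA IP was not a single fraction. Of the 34 members, 22 kept under 10% of input on average, 10 kept from 10% to 20%, and Olfml3 and Sall1 kept more. The values in single animals ran from 1.57% (Gpr34, animal 580) to 34.5% (Csf3r, animal 595) outside Sall1. After TMM scaling the range of means without Sall1 was 3.59% to 35.8%. The median member without Sall1 was nonetheless steady between animals, at 6.38% to 7.14%.

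The spread between animals differed between the fractions. The median coefficient of variation over animals was 10.8% in input and 27.8% in HA IP, where counts were also far lower. Among the 33 members without Sall1, the HA IP library of animal 595 was the highest of the 4 for 11 and the lowest for 13. It was highest for Csf1r, Csf3r, P2ry12, Gpr34, Selplg, Tmem119, Siglech, Olfml3, Slco2b1, Trem2 and Aif1. It was lowest for C1qa, C1qc, Tyrobp, Fcer1g, Cd14, Cd68, Ctss, Laptm5, Mpeg1, Spi1, Irf8, Fcrls and Slc2a5. Tmem119 stood there at 2.18 times the median of the other 3 animals and Spi1 at 0.33 times. Among the inputs, that of animal 579 was the highest for 13 members and the lowest for 0, and that of animal 595 the highest for 2 and the lowest for 13. Over the 33 members these inputs stood at a median of 1.07 and 0.933 times the median of the other 3. The median length behind the FPKM was 2334 bases for the 11 genes highest in the HA IP library of animal 595. For the 13 lowest there it was 1983 bases. That HA IP library also had the fewest fragments, and the part of depth in the pattern was not tested.

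Genes from outside the set showed how far other myeloid transcripts followed it. These lists were put together from general knowledge, but with earlier results of these data known. Beside their counts, 41.4% of all genes tested were lower and 41.8% higher, or 61.6% and 23.3% on the deposited scale. Of 45 other microglia and myeloid genes, all tested, 36 fell, 5 rose and 4 missed the threshold (median log2 fold change -1.17, median remainder 14.2%). The strongest falls were those of Rgs10, a regulator of G protein signalling, at -3.15 (SE 0.12), Adgre1, which encodes the macrophage antigen F4/80, at -3.06, and the actin regulator gene Nckap1l at -2.75 (SE 0.18). The genes that rose were Cmtm6 by 1.88 (SE 0.10), the checkpoint gene Vsir by 1.58, the phospholipase gene Plcg2 by 1.26 (SE 0.19), the lysosomal protease gene Lgmn by 1.05 (SE 0.10) and the collagen receptor gene Lair1 by 0.90 (SE 0.13). On the deposited scale 38 fell and 3 rose, and Lgmn and Lair1 passed no test there. Of 11 tested genes of border macrophages, which live around vessels and in the meninges, 10 fell and Clec10a did not pass. Mrc1, the mannose receptor, had a log2 fold change of -2.08 (SE 0.18) and Lyve1 one of -2.22 (SE 0.28).

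Genes that microglia turn on in disease models, by contrast, divided. Of 12 tested, 8 rose and 4 fell, beside 41.8% higher and 41.4% lower over all genes tested. On the deposited scale 7 rose, 4 fell and 1 missed the threshold, beside 23.3% higher and 61.6% lower. Axl, a receptor for dying cells, rose from 3.55 ± 0.112 to 26.7 ± 1.12 FPKM. The tetraspanin genes Cd63 and Cd9 rose by 4.41 (SE 0.13) and 2.91 (SE 0.14), and the cathepsin genes Ctsl, Ctsd and Ctsb by 2.51, 2.02 and 1.37. Gpnmb rose by 2.26 (SE 0.35) and Spp1 by 1.73 (SE 0.56), but Spp1 did not pass without animal 580 (adjusted p = 0.0890) or on the deposited scale (adjusted p = 0.139). The genes that fell were the lipase gene Lpl at -2.82 (SE 0.18), Ch25h at -2.05, Ccl6 at -1.97 and Clec7a, the beta-glucan receptor dectin-1, at -0.98 (SE 0.15).

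Ligands of microglial receptors, some of them receptors outside the set, were found on both sides. Of 10 tested, 5 rose and 5 fell, and on the deposited scale 4 rose and 6 fell. All genes tested divided in a like way, with 41.8% higher and 41.4% lower, or 23.3% and 61.6% on the deposited scale. CSF1R has a pair of ligands, and their genes moved apart: Csf1 rose from 1.84 ± 0.137 to 3.76 ± 0.814 FPKM (log2 fold change 1.77, SE 0.15), and Il34 fell from 16.9 ± 1.43 to 1.67 ± 0.591 FPKM (log2 fold change -2.51, SE 0.20). Cx3cl1, the fractalkine that neurons make for CX3CR1, fell with its receptor, from 256 ± 16.6 to 15.9 ± 2.15 FPKM. The apolipoprotein genes Apoe and Clu, whose proteins TREM2 binds, rose by 5.38 (SE 0.22) and 4.61 (SE 0.13), Apoe from 880.1 ± 89.1 to 20520.4 ± 1180.3 FPKM. Among signals that keep microglia quiet, Cd200 changed by -4.03 (SE 0.13) and Tgfb1 by -1.10 (SE 0.32), while Tgfb2 rose by 2.88 (SE 0.11) and Tgfb3 changed by -0.62 (SE 0.11). Cd47, the signal against phagocytosis, had 0.45 (SE 0.10) with the scaling and -0.37 without it, so its direction depends on the scaling.

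Of 12 complement genes beyond C1q that were tested, 3 rose, 5 fell and the remaining 4 missed the threshold. On the deposited scale 2 rose, 7 fell and 3 missed it. The shares over all genes tested were 41.8% higher and 41.4% lower, and 23.3% and 61.6% on the deposited scale. C4b, the component that C1-bound proteases cleave, rose from 2.37 ± 0.448 to 25.3 ± 4.35 FPKM (log2 fold change 4.17, SE 0.14), and C2 rose by 2.12 (SE 0.44). Cfb rose by 0.91 (SE 0.15), or by 0.17 on the deposited scale, where it did not pass. C1ra, a protease that joins C1q, changed by -1.39 (SE 0.25), and the receptor genes C3ar1 and C5ar1 by -1.73 (SE 0.20) and -1.28 (SE 0.14). The regulator gene Cd55 changed by -2.42 (SE 0.21).

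**Figure D3:**
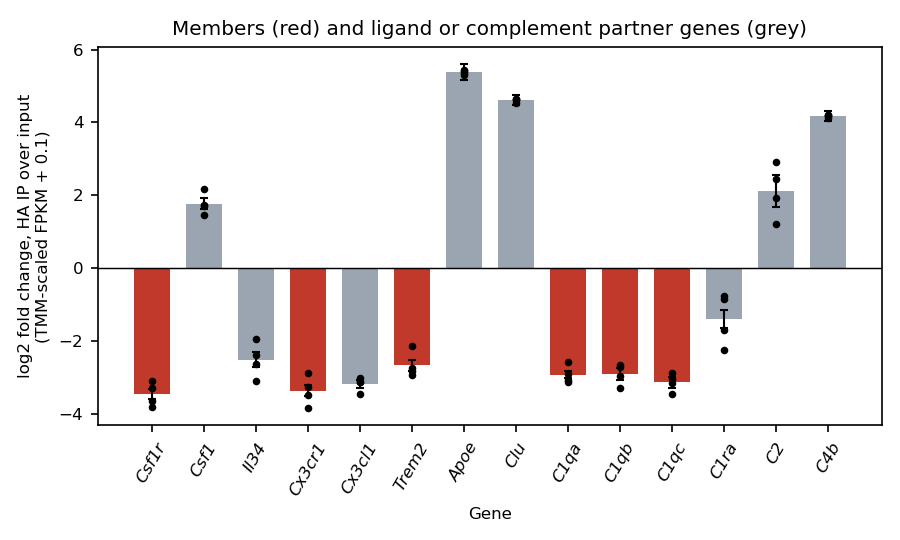
Log2 fold change of HA IP over input (TMM-scaled FPKM + 0.1) for members in red and partner genes in grey, with bars for the fitted value, error bars for the SE and dots for the 4 animals. Csf1r, Cx3cr1, Trem2 and the C1q chains lie at -2.67 or below, while Csf1, Apoe, Clu, C2 and C4b lie above 0.

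Transcripts of other untagged cell types give the scale for the microglia set. The median remainder was 4.60% of input for 10 neuron markers, 6.12% for 10 oligodendrocyte markers, 7.26% for the 33 microglia members and 11.1% for 10 endothelial markers. Between animals these medians ran from 3.95% to 4.94%, 5.10% to 7.48%, 6.38% to 7.14% and 7.57% to 12.8%. With Sall1 included, as genes that did not fall are in the other lists, the microglial median was 7.33% and ran from 6.55% to 7.61%. Both microglial ranges lay above the neuronal one and overlapped that of the oligodendrocyte markers. The endothelial range began at 7.57%, above the whole microglial range without Sall1 and just below the 7.61% reached with it. The lists were not tested against each other. The summed level of the 10 neuron markers was 2313 to 2534 FPKM in input and 88.6 to 114 FPKM in HA IP. All 10 neuron markers fell, for example Snap25 at -4.18 (SE 0.12). Of the oligodendrocyte markers 9 fell, Mbp by 2.91 (SE 0.15), and Aspa had 0.44 (SE 0.15), or -0.37 on the deposited scale. Of the endothelial markers 9 fell, Cldn5 by 2.14 (SE 0.32), and Kdr, at -0.51 (SE 0.42), did not pass.

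**Figure D4:**
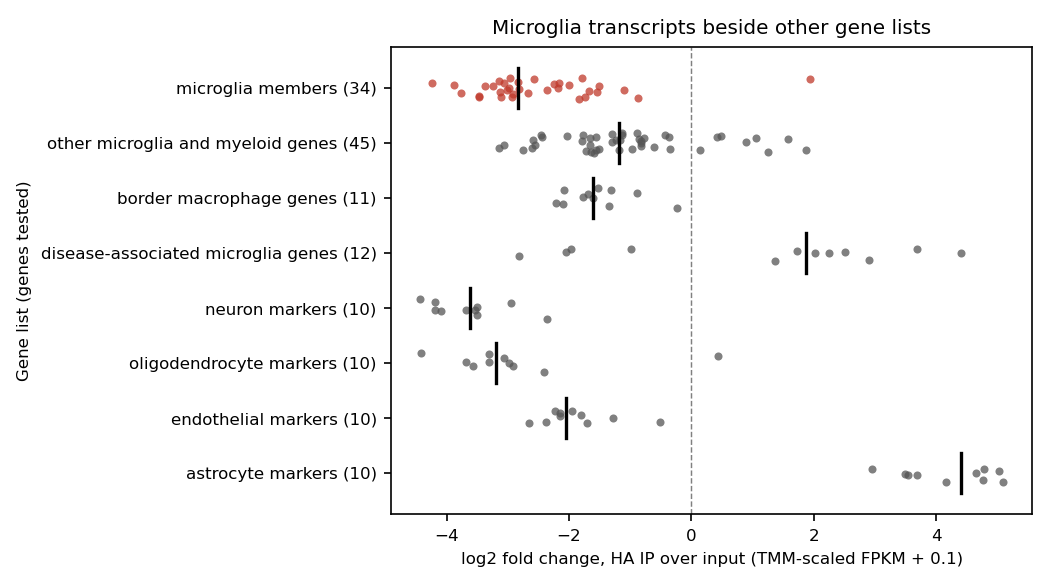
Log2 fold change of HA IP over input for single genes (dots) of the microglia set in red and of other lists in grey, with the number of genes tested in brackets and a black bar at each list's median. The microglia median is -2.83, between those of the oligodendrocyte (-3.19) and endothelial (-2.05) markers, and the red dot on the right is Sall1.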

How the data were processed

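Messenger RNA was sequenced by the submitters from paired input and HA IP fractions of 4 cortices, as stranded paired-end libraries made from 100 ng of RNA, per the labels' protocols. STAR, HTSeq, bcl2fastq 2.17 and the build mm10 are listed in the submitters' processing notes, with no annotation or strand setting. Each file holds 1 value per gene, read as FPKM deposited by the authors, because all 142235 values above 0 fell within 0.001 of a whole number of fragments (or, for large counts, within the rounding of the file) once 1 whole length per gene and 1 whole total per library were fitted. Checked on data with known counts, 99.7% of 15268 genes with at least 100 fragments came back exactly. For Cd68 the fitted length exceeded the RefSeq span, and several lengths are longer than single transcripts, so FPKM were not ranked between genes.

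From these values, TMM factors (0.3 of M-values and 0.05 of A-values trimmed, unweighted, own code) were computed and genes with at least 0.246 CPM (10 fragments in a median library) in at least 4 libraries and at least 15 fragments in all were tested on log2(FPKM + 0.1) without covariates (limma 3.58.1, trend in the prior variance, R 4.3.3). The p-values are two-sided and adjusted over all genes by Benjamini-Hochberg. On data simulated with the layout of this comparison (15496 genes), 99.0% of changes of 1 and 100% of changes of 2 on the log2 scale were recovered. There 6.19% of calls were false. Only 104 and 94 genes carried these changes, the dispersion was the same for all genes, and no shift between the groups was set. The rates hold for that setting and do not carry over to the data, where most genes passed the threshold. Libraries of 1 animal deviated together (correlation 0.22 to 0.40, against at most 0.11 between animals), and the animal number was used as a block in an alternative. Every member is named; other genes were named by list. The members and lists were chosen with earlier results of these data known. Promoter windows are from RefSeq. 2 list genes were matched by an older name, Adgre1 and Vsir.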

Additional observations from a re-analysis of the deposited data

Results flagged for a closer look

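The level of Cd14, the co-receptor for bacterial lipopolysaccharide, stood apart in the HA IP library of animal 581, at 0.342 FPKM against a next highest value of 0.121 FPKM. The gap was 0.91 of the range of the 4 libraries, above the 95% critical value of Dixon's test. The values rest on 23 fragments in that library (exact 95% Poisson interval 14.6 to 34.5) and on 8, 8 and 5 in those of animals 579, 580 and 595. Across the members 68 sets of 4 values were checked and 1 stood out; chance gives about 1 in 20.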

How the results depend on the processing

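The counts of members did not move: 33 were lower and 1 higher under every alternative tried, namely deposited FPKM without TMM scaling, pseudocounts of 1 and 0.01, a filter of 1 CPM, no filter, the animal as a replicate block, and leaving out each animal or each library. The replicate block changed the call of no member. The members' median log2 fold change of -2.83 was -3.60 on the deposited scale, -1.74 with a pseudocount of 1 and -2.96 with 0.01; it ran from -2.89 to -2.71 when animals or libraries were left out, -2.71 being the value without the HA IP library of animal 595. Of all genes, 6530 were higher and 6464 lower; on the deposited scale 3643 were higher and 9613 lower, that is 61.6% of genes lower. Without single animals or libraries these counts were 6192 to 6726 and 6010 to 6662. Of the other genes named, Cd47 (-0.37), Aspa (-0.37) and Rpl22 (-0.14) reversed on the deposited scale. There S100a8 and S100a9 no longer passed, while Clec10a and Kdr did. Aspa was also lost without animal 580 or 595 or the input of 595, and Kdr passed without animal 595 or its HA IP library. The cause was not tested, apart from the mean shift of 0.83 that the scaling adds by construction. Depth limits the members with few fragments in HA IP, such as Slc2a5, Gpr34 and Cd14.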

Other observations

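Of 14 marker genes of other leukocytes 9 were too low to test, among them the T cell genes Cd3e and Cd3d, with 6 and 7 fragments over the 4 inputs. The neutrophil calprotectin genes S100a8 and S100a9 were higher in HA IP, by 1.55 (SE 0.48) and 1.89 (SE 0.52) on the log2 scale (limma, adjusted p = 0.0121 and 0.0069). On the deposited scale the adjusted p was 0.149 and 0.0578. S100a8 was at 1.59, 1.52, 0.974 and 0.288 FPKM in the inputs of animals 579, 580, 581 and 595 and at 1.35, 3.01, 0.973 and 2.05 FPKM in HA IP. The groups overlapped, and the input of animal 595 was the lowest value of the 8.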
